A study of Mus musculus with 3 samples.

Results

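The miRNAs described here are the arms of miR-322, miR-503, miR-351, miR-542, miR-450a and miR-450b, whose hairpins lie side by side on the mouse X chromosome. Every listed mature arm of these names was taken, which gave 12 of the 693 miRNAs listed in the files. Small RNA was sequenced from mouse ES cells of the TAG1 line, which carries a constitutively active Alk4* receptor under the control of doxycycline (Dox). The Control library came from untreated cells, the SB library from cells kept for 16 hrs in 30 µM of the TGF-β receptor inhibitor given as SB-431541 in the sample labels, and the Dox library from cells treated with SB in the same way before Dox was added at 1 µg/µl for 12 hrs. By the design, activated (phosphorylated) Smad2/3 is repressed in the SB sample and induced in the Dox sample. All cells had LIF, and both treated cultures were in serum replacement (KSR) while the Control cells were in FBS, so that treatment and medium cannot be told apart in a comparison with Control. Each condition is 1 library of 1 cell line, so no difference below has a replicate check.

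Animal miRNAs are cut from the stem of a hairpin, and either arm, 5p or 3p, can be loaded onto an Argonaute protein to repress mRNAs that pair with its seed, bases 2 to 8. The miR-322 and miR-503 hairpins are known for 5p arms related to miR-15 and miR-16, which repress cell cycle genes such as cyclins, and they are induced when myoblasts leave the cell cycle to differentiate. The human counterpart of miR-322 is miR-424. miR-351 shares its seed with miR-125, and miR-542-3p is known to repress the survivin mRNA.

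The 12 listed arms have RefSeq mature sequences on GRCm38.p6, shown here because the seeds set the families described later. In each line the seed is in capitals.
miR-322-5p: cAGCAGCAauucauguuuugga
miR-322-3p: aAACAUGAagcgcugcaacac
miR-503-5p: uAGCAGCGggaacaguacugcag
miR-503-3p: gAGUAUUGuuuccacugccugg
miR-351-5p: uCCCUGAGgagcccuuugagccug
miR-351-3p: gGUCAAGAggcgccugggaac
miR-542-5p: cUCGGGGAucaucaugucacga
miR-542-3p: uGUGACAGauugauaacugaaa
miR-450a-5p: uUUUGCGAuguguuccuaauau
miR-450a-1-3p: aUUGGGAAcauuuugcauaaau
miR-450b-5p: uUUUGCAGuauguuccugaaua
miR-450b-3p: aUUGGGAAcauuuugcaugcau
The seeds of miR-322-5p and miR-503-5p match at bases 2 to 7 and differ at base 8. miR-450a-1-3p and miR-450b-3p have the same seed and the same first 18 bases, so a read of 18 bases or fewer from this end fits both. A further arm, miR-450a-2-3p, is not listed: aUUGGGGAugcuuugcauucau. miR-450a-5p is the same in the Mir450-1 and Mir450-2 hairpins, and its reads cannot be split between them.

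On GRCm38 the 7 hairpins lie on the minus strand of chromosome X between 53047997 and 53054349, a stretch of 6353 bases that starts, in the direction of transcription, with Mir322 (53054255 to 53054349). Mir503 (53053984 to 53054054) follows after a gap of 200 bases and Mir351 (53053255 to 53053353) after a further 630 bases. A gap of 3767 bases separates Mir351 from Mir542 (53049403 to 53049487), behind which Mir450-2, Mir450-1 and Mir450b end the stretch. The RefSeq span of the long noncoding RNA gene C430049B03Rik (53053112 to 53057190) holds Mir322, Mir503 and Mir351, while the GENCODE M21 models of the same gene (53055046 to 53057190) end before Mir322. No hairpin of the cluster lies in a protein-coding gene of GENCODE M21, in which Hprt and Plac1 are on either side.

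**Figure D1:**
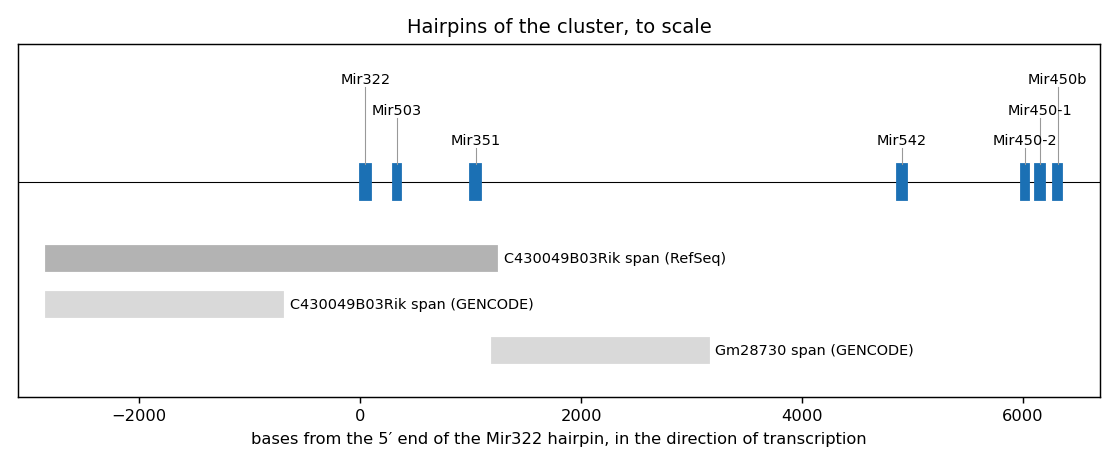
Position of the 7 hairpins (blue boxes, to scale) in bases from the 5′ end of the Mir322 hairpin along the direction of transcription, with the annotated spans of long noncoding RNA genes in grey. Mir322, Mir503 and Mir351 stand together, and Mir542 and the Mir450 hairpins stand apart from them by a gap of 3767 bases.

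The hairpins of miR-322 and miR-503 are printed with both mature arms in capitals, because their reads come mostly from opposite arms, as described below.
Mir322: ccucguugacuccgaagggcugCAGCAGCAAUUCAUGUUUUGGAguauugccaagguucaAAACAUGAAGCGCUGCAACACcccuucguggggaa
Mir503: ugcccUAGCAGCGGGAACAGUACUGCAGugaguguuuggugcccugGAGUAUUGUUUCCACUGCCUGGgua

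Levels are in rpm, for which the authors divided the reads of a miRNA by a total for its library and multiplied by 1000000. The values are whole multiples of 0.0913, 0.0881 and 0.101 rpm in the Control, SB and Dox libraries, which is the worth of 1 read and gives the number of reads behind each level. Intervals in parentheses are 95% exact intervals from these reads and cover counting error only, since reads of PCR copies, here without molecular identifiers, do not count molecules one by one. An arm was called higher or lower by the criteria of the study, a fold change of 1.25 or more together with a Z-score that reaches 1.96 in either direction. The Z-score compares the read shares of 2 libraries and not conditions. The median log2 ratio over all 693 listed miRNAs was −0.19 for SB over Control, 0.38 for Dox over SB and 0.19 for Dox over Control, and ratios of the arms are given beside it. As a check of the cell type, the 12 ES cell miRNAs on the marker list (miR-290 to miR-295 and miR-302) were all listed, with summed levels of 74971 rpm in Control, 59713 rpm in SB and 85051 rpm in Dox. The sums rest on few abundant miRNAs: 7 of the 12 were above Control in SB, and 7 of the 12 were below SB in Dox. The 8 fibroblast miRNAs on the other list were also all listed, and their sum was 2332 rpm in Control, 5549 rpm in SB and 2966 rpm in Dox. In SB all 8 were above Control, and in Dox all 8 were below SB.

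The arms of the cluster summed to 686 rpm in Control (671 to 702), 569 rpm in SB (555 to 583) and 705 rpm in Dox (689 to 722), from 7519, 6457 and 6980 reads. The log2 ratio of the sum was −0.27 (−0.32 to −0.22) for SB over Control and 0.31 (0.26 to 0.36) for Dox over SB. Both changes were under the fold of 1.25, so the sum was not called in either comparison, and it was not called for Dox over Control (log2 ratio 0.040, −0.0077 to 0.087, turning to −0.20 per miRNA read). As a share of all miRNA reads, which does not depend on the other small RNAs in a library, the cluster made up 0.242% in Control (0.237 to 0.248), 0.236% in SB (0.230 to 0.242) and 0.211% in Dox (0.206 to 0.216). By this measure SB and Control overlapped, and Dox was below both. The direction of the sum between SB and Dox therefore turned with the scaling, to a log2 ratio of −0.16 when levels were taken per miRNA read.

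Most of these reads came from a pair of arms. miR-503-5p had 393 rpm in Control (382 to 405), 315 rpm in SB (305 to 325) and 402 rpm in Dox (389 to 414), or 57.3%, 55.4% and 57.0% of the reads of the cluster. miR-322-3p had 185 rpm in Control (177 to 193), 161 rpm in SB (154 to 169) and 175 rpm in Dox (167 to 183). By level miR-503-5p was number 83, 93 and 87 of the listed miRNAs in the 3 libraries, and miR-322-3p was number 112, 115 and 124.

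The other 10 arms had at most 32.0 rpm. In Control the next arm in the order of levels was miR-542-3p (24.2 rpm, 21.4 to 27.3). It was followed by miR-450a-5p (18.3 rpm), miR-450b-3p (18.2 rpm), miR-542-5p (15.5 rpm) and miR-322-5p (15.3 rpm), whose intervals overlapped. The arms of miR-351 had 6.12 rpm (5p) and 5.20 rpm (3p), also with overlapping intervals, and miR-450b-5p had 3.65 rpm. At the end of the order were miR-450a-1-3p with 11 reads and miR-503-3p with 10 reads in Control, and each had 6 reads in SB. Reads summed over the libraries reached 100 for all arms but these last ones.

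**Figure D2:**
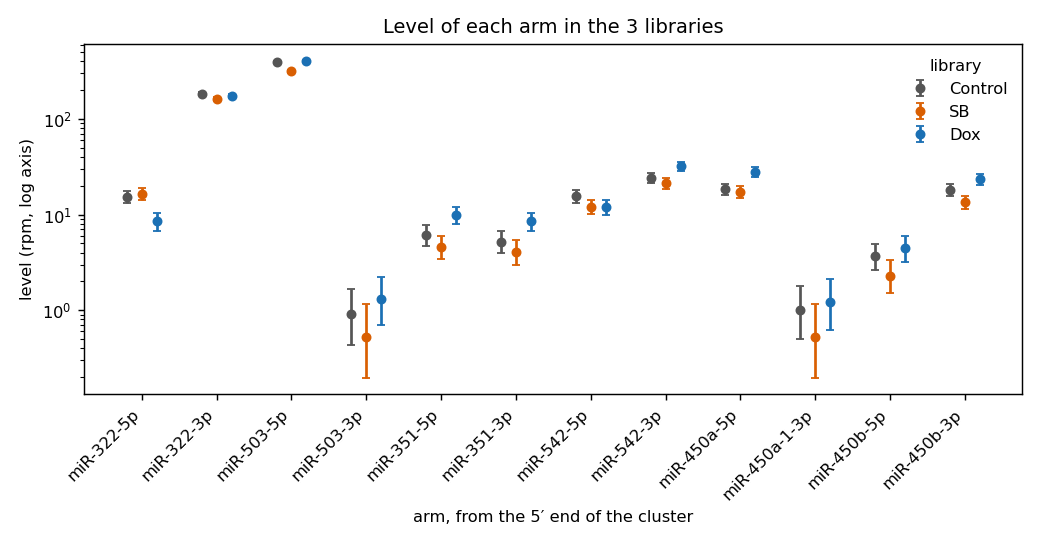
Level of each arm (y axis, rpm on a log axis) in the Control, SB and Dox libraries, with arms in the order of their hairpins along the cluster and 95% Poisson intervals of the read number as error bars. miR-503-5p and miR-322-3p stand above the other arms in every library, and for miR-322-5p the Dox library lies below the others.

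The comparison of SB with Control asks what changes when Smad2/3 activation is blocked. By the criteria, 2 of the 12 arms were lower in SB and none was higher, where 30.2% of all listed miRNAs were called lower and 15.3% higher. Both had at least 100 reads over the libraries, as had 10 of the 12 arms, and 59.8% of the listed miRNAs of that depth were called in either direction. The 2 arms were miR-450b-3p and miR-542-5p. miR-450b-3p went from 18.2 rpm (199 reads) to 13.5 rpm (153 reads), a log2 ratio of −0.43 (−0.74 to −0.12). miR-542-5p went from 15.5 rpm (170 reads) to 12.0 rpm (136 reads), a log2 ratio of −0.37 (−0.71 to −0.040). Each was called under 2 of the 6 scalings of the libraries that were tried.

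The abundant arms had narrow counting intervals. miR-503-5p gave −0.32 (−0.39 to −0.26), a fold just short of 1.25 that ran from −0.56 to −0.090 on the log2 scale over the scalings, and miR-322-3p gave −0.19 (−0.29 to −0.10), which is the median of all listed miRNAs and ran from −0.44 to 0.038 over the scalings. Both were called lower with the libraries scaled to miR-26a-5p. In rpm the log2 ratio was below 0 for 11 of the 12 arms, and in 4 of these the interval was wholly below 0. The share of all listed miRNAs below 0 was not computed. The median of the arms was −0.37, against −0.19 over all listed miRNAs, and 8 arms lay below the latter. A ratio above the median of the arms was found for 58.6% of all listed miRNAs. The arm above 0 was miR-322-5p, which had 15.3 rpm in Control and 16.5 rpm in SB, with a log2 ratio of 0.10 (−0.21 to 0.41) that ran from −0.14 to 0.33 over the scalings and was called higher under 1 of them. The intervals of 8 arms held 0 in rpm. Of these, miR-322-5p was called higher per miRNA read, while both arms of miR-351, miR-542-3p, miR-450a-5p and miR-450b-5p were called lower with the libraries scaled to miR-26a-5p. The summed arms of miR-351 were called lower (log2 ratio −0.39, −0.79 to 0.0028), in rpm and under 1 other scaling. Over the 3 libraries SB was the lowest for 10 of the 12 arms in rpm, where it was for 48.2% of all listed miRNAs. Over the scalings it was the lowest for 6 to 10 arms and for 30.4% to 52.4% of the listed miRNAs.

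The comparison of Dox with SB asks what changes when the active receptor is induced after the block. The Dox cells also had 12 hrs more in culture, and no library had Dox without the receptor. Receptor, drug and time in culture therefore cannot be told apart in this comparison. By the criteria 7 arms were higher in Dox, where 41.7% of all listed miRNAs were, and 1 was lower, where 17.9% were. These 8 calls set the cluster beside 59.6% called in either direction over all listed miRNAs, or 75.5% over those with at least 100 reads. Per miRNA read 3 arms were higher and 3 lower. In this unit the median log2 ratio of all listed miRNAs was −0.090. The shares above hold for rpm, and none was computed per miRNA read. The 7 higher in rpm were miR-503-5p, both arms of miR-351, miR-542-3p, miR-450a-5p and both arms of miR-450b, and the arm that was lower was miR-322-5p. The median log2 ratio of the 12 arms was 0.74, against 0.38 over all listed miRNAs, and 33.6% of all listed miRNAs had a ratio above the median of the arms.

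miR-322-5p had 16.5 rpm (14.2 to 19.01) in SB and 8.49 rpm (6.77 to 10.5) in Dox, from 187 and 84 reads. The intervals did not overlap. Its log2 ratio was −0.96 (−1.345 to −0.58), and it was called lower under all 6 scalings of the libraries, with ratios from −1.42 to −0.96. Its change went the same way as that of the 8 fibroblast miRNAs, whose median log2 ratio was −1.998 for Dox over SB. For SB over Control the same list had a median of 1.38, with all 8 above 0, where miR-322-5p gave 0.10 (−0.21 to 0.41). For Dox over Control 5 of the 8 were below 0 and 3 above, with a median of −0.39, where miR-322-5p gave −0.85. For Dox over SB miR-322-3p, from the same hairpin, gave 0.11 in rpm and −0.35 per miRNA read. The part of other cells in the fall of miR-322-5p was not tested. In bulk RNA fewer cells of a type and less RNA per cell cannot be told apart.

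miR-351-5p had 6.12 rpm in Control, 4.58 rpm in SB and 9.80 rpm in Dox, from 67, 52 and 97 reads. miR-351-3p had 5.20, 4.05 and 8.49 rpm, from 57, 46 and 84 reads. Both arms were thus lowest in SB and highest in Dox, and their log2 ratios for Dox over SB were 1.10 (0.60 to 1.61) and 1.07 (0.53 to 1.62). Both were called higher under all 6 scalings, and also with a fold threshold of 2, which left no other arm called.

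miR-450b-3p had 13.5 rpm in SB and 23.3 rpm in Dox, with a log2 ratio of 0.79 (0.49 to 1.10), and was called higher under all 6 scalings as well. It was the only arm of the cluster that met the criteria in both comparisons, lower in SB and higher in Dox, a profile that 20.9% of the listed miRNAs had. Both comparisons rest on the same SB library, so a low value there favours both calls and they are not independent. miR-450a-5p rose from 17.3 to 27.8 rpm (log2 ratio 0.68, 0.41 to 0.95), miR-450b-5p from 2.29 to 4.45 rpm (0.96, 0.23 to 1.72), and miR-542-3p from 21.2 to 32.0 rpm (0.59, 0.35 to 0.84). These calls held under 3, 3 and 2 of the 6 scalings.

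miR-503-5p had 315 rpm in SB and 402 rpm in Dox, a log2 ratio of 0.35 (0.29 to 0.42) that was just past the fold threshold in rpm and turned to −0.12 when taken per miRNA read. In rpm it was 0.026 below the median of all listed miRNAs. miR-322-3p gave 0.11 (0.019 to 0.21), which turned to −0.35 per miRNA read. miR-542-5p had 12.0 rpm in SB and 11.9 rpm in Dox, 0.38 below the median of all listed miRNAs, and was called lower under 4 of the 6 scalings, though not in rpm. In rpm the intervals of miR-322-3p and miR-542-5p thus lay below the median of all listed miRNAs. Those of both arms of miR-351 and of miR-450b-3p lay above it, and those of miR-503-5p and miR-450b-5p held it. For miR-503-3p and miR-450a-1-3p the Dox library had 13 and 12 reads, and the intervals of their ratios held 0.

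**Figure D3:**
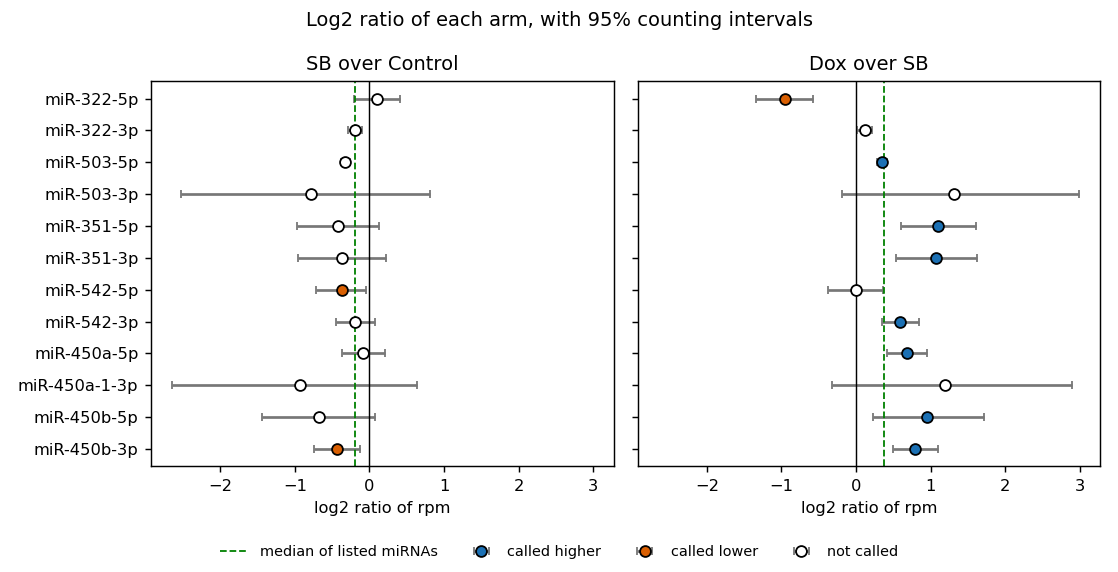
Log2 ratio of rpm (x axis) of each arm for SB over Control (left) and Dox over SB (right), with 95% exact counting intervals, filled points for arms called by fold change and Z-score, and the median of the 693 listed miRNAs as a dashed line. miR-322-5p is the arm called lower in Dox, at −0.96, while the arms of miR-351 and miR-450b lie to the right of the dashed line.

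The comparison of Dox with Control sets the induced receptor beside untreated growth in serum. Both libraries were also used above, so these ratios are not independent of the earlier ones. By the criteria 5 arms were higher in Dox, where 30.6% of all listed miRNAs were, and 2 were lower, where 19.8% were. In either direction 50.4% of all listed miRNAs were called, or 64.2% of those with at least 100 reads. Per miRNA read 1 arm was higher and 2 were lower. In this unit the median log2 ratio of all listed miRNAs was −0.049, and the share of them called was not computed. The higher ones in rpm were miR-351-3p (log2 ratio 0.71, 0.20 to 1.22), miR-351-5p (0.68, 0.22 to 1.15), miR-450a-5p (0.60, 0.33 to 0.87), miR-542-3p (0.41, 0.17 to 0.65) and miR-450b-3p (0.36, 0.082 to 0.64). The lower ones were miR-322-5p, with 15.3 rpm in Control and 8.49 rpm in Dox (−0.85, −1.25 to −0.47), and miR-542-5p, with 15.5 and 11.9 rpm (−0.38, −0.73 to −0.033). Both lower arms kept their call under all 6 scalings, the arms of miR-351 under 4, miR-450a-5p under 5, and miR-542-3p and miR-450b-3p in rpm only. For miR-503-5p the ratio was 0.031 (−0.032 to 0.093), which was below 0 under every other scaling, from −0.27 to −0.10.

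The arms of 1 hairpin come from the same precursor, and the share of the 5p arm in the reads of both does not depend on how the libraries are scaled. It ranged widely between hairpins. In miR-503 the 5p arm made up 99.8% of the reads in Control, 99.8% in SB and 99.7% in Dox. In miR-351 the arms were nearly even, with 54.0%, 53.1% and 53.6% from 5p. In miR-450b the 3p arm led, and 5p held 16.7%, 14.5% and 16.0%. In each of these hairpins the intervals of the 3 libraries overlapped. For miR-450a the listed arms do not come from 1 hairpin, since the 5p reads are from Mir450-1 and Mir450-2 and the 3p arm of Mir450-2 is not listed. miR-450a-5p held 94.8%, 97.0% and 95.8% of the reads of the listed arms, also with overlapping intervals, and this is no arm share of a hairpin.

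In miR-322 the 3p arm led in every library, although the 5p arm carries the miR-15/16 seed. The share of 5p was 7.67% in Control (6.59 to 8.87), 9.26% in SB (8.03 to 10.6) and 4.63% in Dox (3.71 to 5.70). The Dox interval lay below both others. There were thus 12.0 reads of miR-322-3p for each read of miR-322-5p in Control, 9.80 in SB and 20.6 in Dox. In miR-542 the share of 5p was 39.1% in Control (34.5 to 43.8), 36.1% in SB (31.2 to 41.1) and 27.1% in Dox (23.0 to 31.6), so that Dox was apart from Control and overlapped SB. Of the 180 pairs of listed 5p and 3p arms with at least 100 reads in each library, the 5p shares in Dox and SB had intervals apart in 51.1%, those in Dox and Control in 48.3% and those in SB and Control in 26.1%. The cluster had 1, 2 and no pairs of this kind. Of its 6 pairs, all but miR-351 met that minimum of reads.

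**Figure D4:**
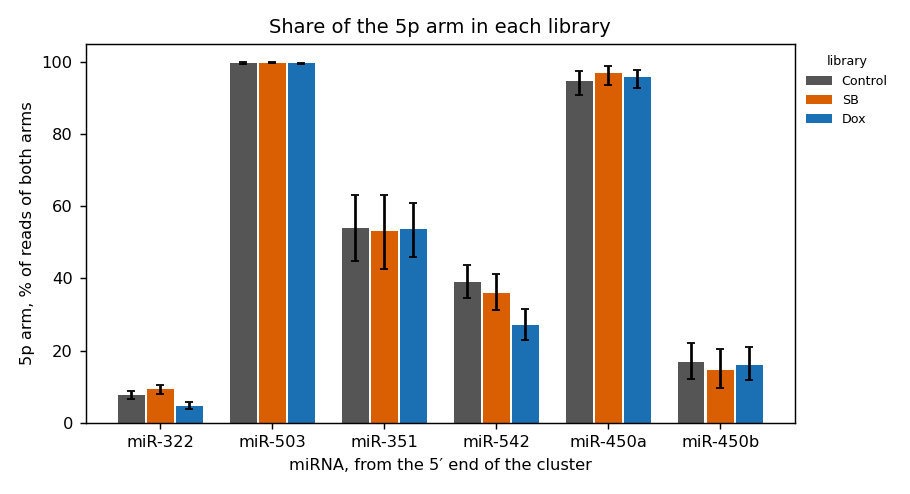
Share of the 5p arm in the reads of both arms (y axis, %) for the 6 pairs of arms in the Control, SB and Dox libraries, with 95% Clopper-Pearson intervals as error bars; the pair of miR-450a is not 1 hairpin. In Dox the share is 4.63% for miR-322, below both other libraries, and 27.1% for miR-542, below Control, and the intervals of the other pairs overlap across the libraries.

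The make-up of the cluster also shifted in Dox. Hairpins past the miR-503 hairpin in the direction of transcription (miR-351, miR-542 and miR-450) gave 13.4% of the reads of the cluster in Control (12.7 to 14.2), 13.3% in SB (12.5 to 14.1) and 16.9% in Dox (16.0 to 17.8). The Dox share was above both others, which overlapped. miR-351 alone went from 1.65% in Control and 1.52% in SB to 2.59% in Dox (2.23 to 2.99), and miR-450a from 2.82% and 3.14% to 4.11% (3.66 to 4.60). miR-450b made up 3.18%, 2.77% and 3.94% (3.50 to 4.42), where the Dox interval was above that of SB and overlapped that of Control. For miR-542, the largest of these, the shares were 5.79%, 5.84% and 6.23% with overlapping intervals. Of the other hairpins, miR-322 made up 29.1%, 31.3% and 25.97% and miR-503 57.4%, 55.4% and 57.1%. In rpm the log2 ratio for Dox over SB was 0.66 (0.53 to 0.79) for the sum of the miR-351, miR-542 and miR-450 arms, which was 0.19 per miRNA read and was called under 3 of the 6 scalings. For the sum of the miR-322 and miR-503 arms it was 0.25 (0.20 to 0.30), not called, and it turned below 0 under 4 of the 6 scalings, to −0.22 per miRNA read. This grouping was chosen after the values were seen.

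Outside the cluster, 5 listed miRNAs share the seed of miR-322-5p: miR-15a-5p, miR-15b-5p, miR-16-5p, miR-195-5p and miR-497-5p. The family is known for restraint of cyclins and other cell cycle genes. miR-16-5p led it with 341 rpm in Control, 353 rpm in SB and 294 rpm in Dox, and miR-322-5p held 2.74% of the reads of the family in Control (2.34 to 3.18), 2.90% in SB (2.50 to 3.34) and 1.78% in Dox (1.42 to 2.20). Its share in Dox was below both others. miR-503-5p, whose seed departs from theirs at base 8, had a higher level than miR-16-5p in Control and Dox.

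The members of the family did not move alike between SB and Dox. miR-15b-5p was called lower, from 118 to 46.7 rpm (log2 ratio −1.34, −1.50 to −1.19), together with miR-322-5p. miR-195-5p rose from 4.93 to 13.0 rpm (1.40, 0.94 to 1.88) and miR-497-5p from 38.3 to 80.4 rpm (1.07, 0.90 to 1.24). The calls of miR-15b-5p, miR-195-5p and miR-497-5p held under all 6 scalings. miR-16-5p (−0.26) and miR-15a-5p (−0.14) were not called in rpm, but both were called lower under 4 of the 6 scalings, at −0.73 and −0.60 per miRNA read.

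**Figure D5:**
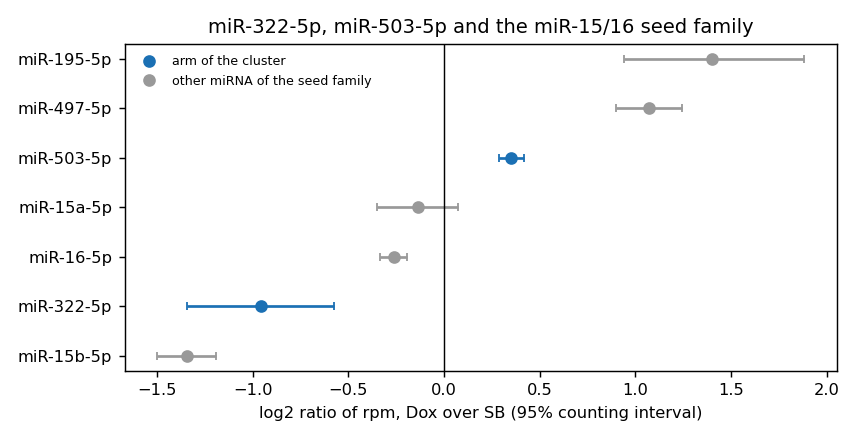
Log2 ratio of rpm for Dox over SB (x axis) with 95% exact counting intervals for miR-322-5p and miR-503-5p (blue) and 5 seed relatives (grey). The relatives are the other listed miRNAs with a matched sequence and the miR-322-5p seed. miR-15b-5p and miR-322-5p lie lowest, at −1.34 and −0.96, and miR-497-5p and miR-195-5p highest, at 1.07 and 1.40.

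Among the listed miRNAs with a matched sequence, miR-125a-5p and miR-125b-5p share the seed of miR-351-5p. miR-351-5p held 2.99% of the reads of the 3 in Control (2.32 to 3.78), 1.02% in SB (0.765 to 1.34) and 4.29% in Dox (3.50 to 5.21), and the intervals of SB were apart from both others. The low share in SB went with miR-125b-5p, which had 97.0 rpm in Control, 352 rpm in SB and 46.5 rpm in Dox. miR-125a-5p had 101, 91.1 and 172 rpm, lowest in SB and highest in Dox in this unit, and its log2 ratio for SB over Control turned to 0.076 per miRNA read.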

How the data were processed

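Small RNA of 3 TAG1 ES cell samples was sequenced on an Illumina GAII. After clipping of adaptors, reads of more than 16 bases were aligned by the authors to miRBase 18 without mismatches, first to mature and then to hairpin sequences (Bowtie 0.12.7, version per the submitters' processing notes). They pooled 2 runs per library and dropped miRNAs under 10 reads in all. Where a read matched more than 1 miRNA, its length decided, or all received it. The deposited values are RPM, relative to 1000000 reads.

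Here reads were recovered from the RPM steps: all 2079 values were whole multiples within 0.01 read, for totals of 10955686 (Control), 11354692 (SB) and 9895513 (Dox) reads, the divisors of the RPM values. The authors describe normalization to the total reads of a sample, and these divisors are smaller than the totals they state. Ratios had no pseudocount. The Z-score used pooled proportions. Levels have Poisson intervals, and shares and ratios have Clopper-Pearson intervals (scipy 1.17.1). No correction for ligation preference was made between sequences. Alternatives were 5 scalings, a pseudocount, fold thresholds, a read minimum, a shorter seed and the sum without miR-503-5p. Names of 542 of the 693 miRNAs matched RefSeq sequences, 26 of them through an "a" added to the number. Named were the arms of the cluster, seed relatives, the miR-106a~363 cluster, the marker lists and the 5 miRNAs nearest in pattern. The members and lists were chosen with earlier results of these data known.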

Additional observations from a re-analysis of the deposited data

How the results depend on the processing

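Of 288 ratios of single arms recomputed under an alternative, 56 kept the sign and lost a call, 14 kept the sign and gained one, 23 turned sign and the others kept both. Of the 23, 9 were of ratios called in rpm or with an interval off 0, given below, and 14 of ratios whose interval held 0. With a pseudocount of 1 rpm all 36 were unchanged in call. The summed level was called for SB over Control only with the libraries scaled to miR-26a-5p (log2 ratio −0.51). For Dox over SB the sum turned to −0.16 per miRNA read, −0.069 by the median of ratios and −0.074 by TMM. miR-322-3p turned for SB over Control to 0.038 (miRNA reads) and 0.013 (TMM), and for Dox over SB to −0.35 (miRNA reads), −0.27 (median of ratios), −0.27 (TMM) and −0.29 (quantiles). miR-503-5p turned for Dox over SB to −0.12 (miRNA reads), −0.027 (median of ratios) and −0.033 (TMM). Arms called for SB over Control numbered 2 as reported (both lower), 1 with miRNA reads (higher), 0 by the median of ratios, 0 by TMM, 0 by quantiles, 9 with miR-26a-5p (all lower), and 0 at fold thresholds of 1.5 and 2. For Dox over SB 8 were called as reported (7 higher and 1 lower), 6 with miRNA reads (3 and 3), 5 by the median of ratios, 5 by TMM (3 higher and 2 lower in each) and 2 at a fold of 2 (both higher). For Dox over Control 7 were called as reported (5 higher and 2 lower), 3 with miRNA reads (1 and 2), 3 with miR-26a-5p (all lower), 4 at a fold of 1.5 (3 and 1) and 0 at a fold of 2. Why the scalings differ was not tested. With a seed of bases 2 to 7 miR-503-5p joins the miR-15/16 family, and the cluster then held 42.9% of its reads in Control, 37.5% in SB and 46.7% in Dox. No paired analysis was possible because each condition has 1 library. Depth limited miR-503-3p and miR-450a-1-3p, with 29 reads each over the libraries.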

Other observations

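The cluster of miR-106a to miR-363 is the nearest miRNA cluster named here on the same strand of chromosome X, 305429 bases past Mir450b in the direction of transcription. Its 11 listed arms summed to 8822 rpm in Control, 5189 rpm in SB and 8887 rpm in Dox, with log2 ratios of −0.77 for SB over Control and 0.78 for Dox over SB. By the criteria in rpm 7 of the 11 were lower in SB, where 30.2% of all listed miRNAs were. In Dox 5 were higher than in SB and 3 lower, where 41.7% and 17.9% of all listed miRNAs were. Per miRNA read 2 of the arms were higher and 4 lower, a unit for which no share of all listed miRNAs was computed. The sum for Dox over SB was above 0 under all 6 scalings (0.31 to 0.78). miR-19b-3p and miR-92a-3p also come from a hairpin on another chromosome, and without them the log2 ratios were −0.87 and 0.82. In the miR-322 to miR-450 cluster the same ratios of the sum were −0.27 and 0.31. Opposite arms differed here too: miR-20b-5p was called lower in Dox than in SB (log2 ratio −0.34, −0.46 to −0.22) and miR-20b-3p higher (0.94, 0.55 to 1.34).

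The miRNAs nearest to the sum of the cluster over the log2 ratios SB over Control and Dox over SB, among 285 others with at least 100 reads in every library, were miR-872-3p, miR-135b-5p, miR-34a-3p, miR-136-3p and miR-421-3p. Their Euclidean distances on the log2 scale were between 0.104 and 0.118, over 3 libraries and thus only 2 ratios, which share the SB library. miR-872-3p had 92.4 rpm in Control, 81.3 rpm in SB and 96.9 rpm in Dox.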
